A study of Mus musculus with 4 samples.

Results

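The genes described here are 10 genes of spermatogonial identity and meiotic entry, taken as a fixed list of names and matched by symbol to the mouse annotation, where all 10 were found among 22367 protein-coding genes. They comprise the receptor genes Kit and Gfra1, the transcription factor genes Zbtb16, Sall4, Dmrt1, Sohlh1 and Sohlh2, the RNA-binding protein gene Nanos2, the ubiquitin hydrolase gene Uchl1 and the meiotic entry gene Stra8. H3K36me3 was profiled by ChIP-seq, with chromatin fragmented by micrococcal nuclease, in cells labelled as spermatocytes at 14 dpp (days post-partum) from the strain C57BL/6J (B6) and from the knock-in strain B6.Cg-Prdm9<tm1.1Kpgn>/Kpgn (KI). KI carries the B6 genome except for the last exon of Prdm9, which encodes the zinc fingers of PRDM9 and comes from the castaneus allele. The labels spell the antibody H3K36me6, whereas the sample titles and the methods name H3K36me3, the mark used throughout. The input controls were labelled 15 dpp, and the labels name no treatment and no number of animals. Reads of 2 biological replicates were merged by the authors for each strain, so each strain has 1 list of broad regions and 1 list of narrow (refined) peaks, both without heights. No value below therefore has a replicate error, and no test between the strains could be run. The depth behind each region is unknown, although the merged KI reads were the more numerous according to the methods.

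Spermatogonia are the mitotic germ cells of the testis, and they include the stem cells. GDNF from Sertoli cells acts through GFRA1 and RET to maintain the stem cells, whereas KIT and its ligand act in differentiating spermatogonia, and retinoic acid induces Stra8 at the entry into meiosis. H3K36me3 is placed by SETD2 over the bodies of transcribed genes and is generally low at their promoters. The paper reports that PRDM9 also places this mark at recombination hotspots, whose places differ between the strains. Whether the narrow peaks described here lie at hotspots was not tested. At 14 dpp the seminiferous tubules hold both spermatogonia and spermatocytes, so a mark in a mixed population cannot tell a change in the share of cells from a change in the mark within each cell.

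The labelled cell type was checked first. Of 10 spermatocyte marker genes, 9 were found by symbol, and broad regions covered 72.6% to 100% of each in B6 and 74.5% to 100% in KI. Of 8 genes of spermatids, a later stage, Prm1, Tnp1, Tnp2 and Spaca7 had no covered base in either strain, whereas Prm2 and Odf1 had none in B6 but were covered to 100% and 26.5% in KI. Of all protein-coding genes, 39.3% in B6 and 37.8% in KI had no covered base. Prm1, Prm2, Tnp1 and Tnp2 are only 0.561 to 0.817 kb long, shorter than the shortest broad region in the 10 genes, 2 kb. Of the remaining spermatid genes, Acrv1 was covered over 100% of its span in B6 and 21.3% in KI, and Spaca1 over 67.1% and 59.2%. The B6 region over Acrv1 began upstream of it and ended 27.1 kb beyond it. The KI region over Acrv1 also began upstream and ended within the gene. Among Leydig cell genes, Cyp17a1, Hsd3b1 and Insl3 had none in either strain, whereas Star was covered to 100% in both by a region that began upstream of it and ended 25.2 kb beyond it. The other Leydig cell genes, Cyp11a1 (0% in B6 and 1.51% in KI) and Lhcgr (4.96% and 0%), were near 0. Sertoli cell genes, described below, reached 71.7% in B6 and 8.49% in KI.

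Broad H3K36me3 covered most of 7 of the 10 genes in B6 and of 6 in KI. The share of a gene is given as the percent of its annotated span, from the 5′ to the 3′ end, that lies in merged broad regions, and a gene with at least 50% was counted as covered. In B6, 7 of 10 genes were covered, beside 43% of all protein-coding genes. In KI, 6 of 10 were covered, beside 41.2%, and the same 6 were covered in both strains, beside 39.9%. The median share over the 10 genes was 86.5% in B6 and 71.3% in KI, whereas over all protein-coding genes it was 21.5% and 18.4%. Dmrt1, Uchl1, Sohlh2, Sohlh1, Stra8 and Kit formed the covered set in both strains, Zbtb16 passed the limit in B6 alone, Sall4 lay just under it in both, and Gfra1 and Nanos2 were at or near 0. No base was covered in 2 genes in B6, beside 39.3%, and in 1 gene in KI, beside 37.8%.

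**Figure D1:**
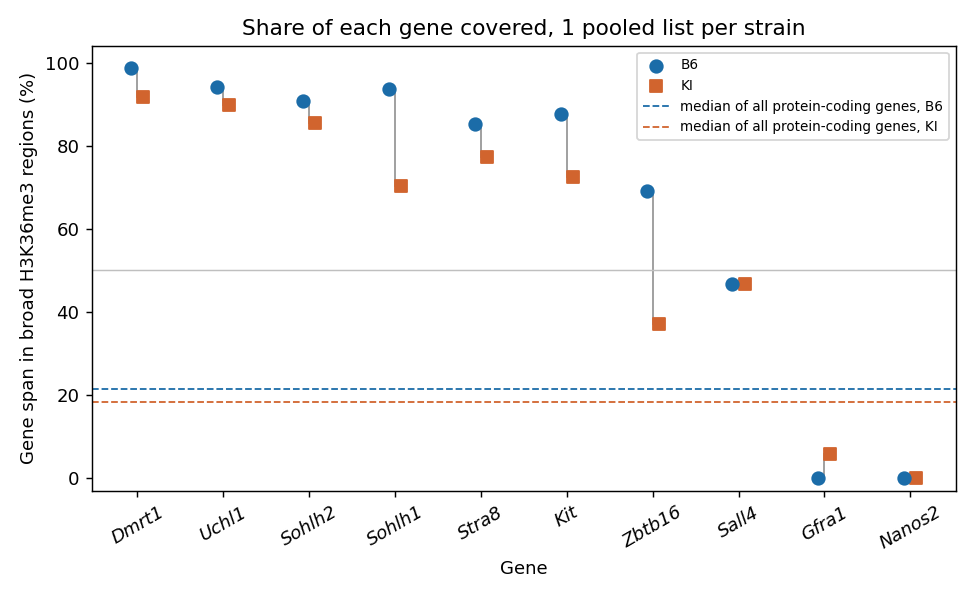
Percent of the gene span in broad H3K36me3 regions (vertical axis) for each of the 10 genes (horizontal axis), with circles for B6 and squares for KI, 1 pooled list per strain and no error bars. The grey line marks 50%, the dashed lines mark the medians of all protein-coding genes (21.5% in B6 and 18.4% in KI), and Sall4 and Nanos2 are the genes with equal values in both strains.

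Stra8, induced by retinoic acid and required for meiotic entry, lies on chromosome 6 of mm9 from 34870163 to 34889342 on the forward strand. Broad regions covered 85.2% of it in B6 and 77.4% in KI, as 1 unbroken region in each strain. The region started 2.84 kb inside the gene in B6 and 4.34 kb inside it in KI, and it ended 3.16 kb and 2.66 kb beyond the 3′ end. Thus the marked part ran from the second intron through the end of the gene in both strains, and the first exon and the promoter lay outside it. The uncovered stretch across the 5′ end was 12.5 kb long in B6 and 14 kb in KI and reached to the region over the upstream gene Wdr91, which was covered to 98.8% in both strains.

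Each strain had 1 refined peak in Stra8, both with midpoints in an intron. The B6 peak of 308 bp had its midpoint 16.6 kb from the 5′ end and the KI peak of 103 bp had its midpoint at 18.7 kb, with 1930 bp between them. Of the refined peaks in all protein-coding genes, only 19.0% in B6 and 15.9% in KI overlapped one of the other strain. They are shown together with the unmarked promoter because they are the narrow peaks of the meiotic entry gene that differ in place between the strains. The promoter is chr6:34869913-34870162, the middle 200 bases of the B6 peak are chr6:34886670-34886869, and the KI peak is chr6:34888853-34888955, all on the forward strand of mm9. Capitals mark CpG dinucleotides, of which the promoter holds 7 and each peak window 1.
Stra8 promoter: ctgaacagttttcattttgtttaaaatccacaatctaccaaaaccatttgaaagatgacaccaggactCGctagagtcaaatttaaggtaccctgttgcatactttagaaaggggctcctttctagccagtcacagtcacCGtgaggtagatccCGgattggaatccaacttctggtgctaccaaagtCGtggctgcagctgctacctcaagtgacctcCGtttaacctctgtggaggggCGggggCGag
Stra8 B6 peak: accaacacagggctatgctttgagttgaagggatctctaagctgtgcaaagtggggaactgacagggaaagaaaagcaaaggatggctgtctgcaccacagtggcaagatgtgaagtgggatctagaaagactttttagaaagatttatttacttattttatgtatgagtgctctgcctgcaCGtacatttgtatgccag
Stra8 KI peak: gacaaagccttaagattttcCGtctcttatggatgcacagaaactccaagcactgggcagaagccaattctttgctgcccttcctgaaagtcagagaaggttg

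**Figure D2:**
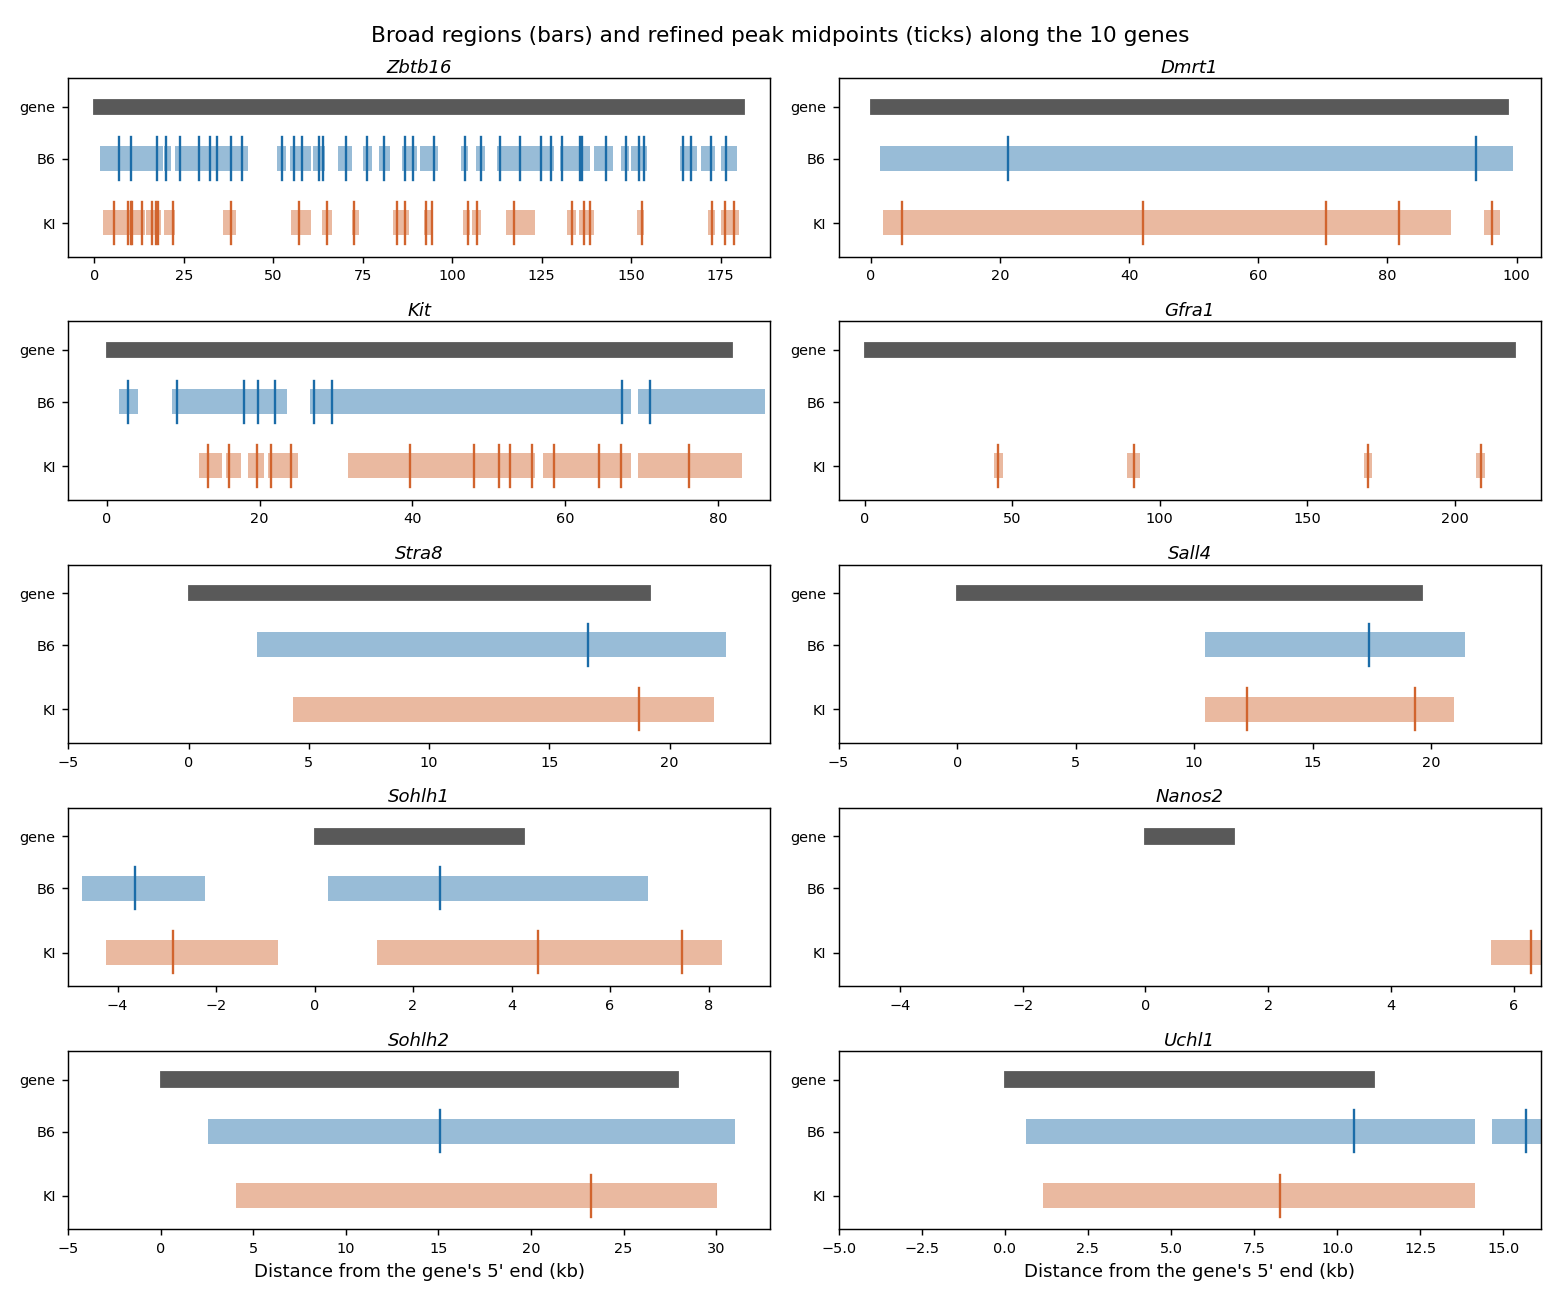
Maps of the 10 genes, each drawn to its own scale as the distance from its 5′ end in kb, with the gene as a grey bar, broad regions as pale bars and refined peak midpoints as ticks, for B6 (blue) and KI (orange). Regions begin inside the gene at Stra8, Sohlh1, Sohlh2, Dmrt1, Kit, Zbtb16, Sall4 and Uchl1, Zbtb16 is split into 21 regions in B6 and 17 in KI, and Nanos2 has none within its span.

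Sohlh1 and Sohlh2 encode basic helix-loop-helix transcription factors of spermatogonial differentiation. Sohlh1 (chromosome 2, 25698515 to 25702768, reverse strand) had a covered share of 93.7% in B6 and of 70.2% in KI. Sohlh2 (chromosome 3, 54985950 to 55013879, forward strand) was covered to 90.9% and 85.5%. Both genes thus carried broad H3K36me3 over most of their length in both strains, and in both the covered share was lower in KI. Sohlh1 is only 4.25 kb long, so the KI minus B6 difference of -23.5 percentage points is 1 kb at its 5′ side, or 2 steps of the 500 bp grid on which the broad regions start. Another region lay upstream of Sohlh1, 2.23 kb from the 5′ end in B6 and 0.732 kb in KI. When gaps of up to 2000 bp were bridged, this region joined the one over the gene in KI, and the KI minus B6 difference became 6.30 percentage points, so the direction at Sohlh1 depends on that choice.

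In Sohlh1, B6 had 1 refined peak of 404 bp in an intron, 2.56 kb from the 5′ end, and KI had none within the gene. The KI region did hold refined peaks just beyond the 3′ end, the nearer from 4.37 to 4.70 kb from the 5′ end. The promoter of Sohlh1 (chr2:25702769-25703018) and the middle 200 bases of the B6 peak (chr2:25700113-25700312) are shown on the reverse strand, since this is the gene in which coverage within 500 bp of the 5′ end on each side differed between the strains, with 23.3% in B6 and 0% in KI. Capitals mark CpG dinucleotides, 11 in the promoter and 2 in the peak window.
Sohlh1 promoter: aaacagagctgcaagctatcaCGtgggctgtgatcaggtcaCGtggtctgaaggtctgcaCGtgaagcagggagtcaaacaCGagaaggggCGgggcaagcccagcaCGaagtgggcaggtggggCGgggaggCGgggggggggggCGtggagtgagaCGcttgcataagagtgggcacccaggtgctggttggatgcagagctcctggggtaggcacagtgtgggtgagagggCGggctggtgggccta
Sohlh1 B6 peak: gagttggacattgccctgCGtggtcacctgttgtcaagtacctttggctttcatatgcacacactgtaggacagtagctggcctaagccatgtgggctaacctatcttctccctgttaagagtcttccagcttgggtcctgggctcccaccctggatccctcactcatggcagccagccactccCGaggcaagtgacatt

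The sequence CACGTG, a palindromic form of the E-box CANNTG to which helix-loop-helix factors bind, was found 3 times in the Sohlh1 promoter and in no promoter of the other 9 genes. Of all 22362 promoters of 250 bases without unknown bases, 6.52% held it on either strand. CANNTG itself, which includes CACGTG, was found in the promoters of Kit, Stra8, Sohlh1, Sohlh2 and Dmrt1, beside 63.6% of all promoters. CNCCTCAG, a sequence associated with binding of STRA8 and its partner, was in 0 of the 10 promoters, beside 6.4% of all. These matches are descriptions of the letters in the window and no site was tested.

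Sohlh2 had 1 refined peak in each strain, at 15.1 kb in B6 and 23.2 kb in KI from the 5′ end, both in introns and 7942 bp apart. Although both peaks were of nearly equal width, 238 bp and 236 bp, neither overlapped a refined peak of the other strain, and both lay within the broad region of the other strain. Lack of overlap is the usual state, since 19.0% of B6 and 15.9% of KI refined peaks in protein-coding genes overlapped one of the other strain. The middle 200 bases of the Sohlh2 peaks are chr3:55000913-55001112 for B6 and chr3:55009091-55009290 for KI on the forward strand. They are shown as a pair of narrow peaks without overlap on enrichment present in both strains. Capitals mark CpG dinucleotides, 1 in the B6 window and 3 in the KI window.
Sohlh2 B6 peak: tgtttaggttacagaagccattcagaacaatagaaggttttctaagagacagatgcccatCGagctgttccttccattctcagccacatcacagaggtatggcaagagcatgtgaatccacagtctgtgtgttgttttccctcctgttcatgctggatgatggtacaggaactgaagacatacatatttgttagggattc
Sohlh2 KI peak: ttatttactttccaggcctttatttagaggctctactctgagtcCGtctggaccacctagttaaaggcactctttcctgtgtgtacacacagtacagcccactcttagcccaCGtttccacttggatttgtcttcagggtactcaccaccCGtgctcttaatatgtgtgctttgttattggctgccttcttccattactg

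Dmrt1 encodes a DM domain transcription factor that restrains meiotic entry in spermatogonia and is also expressed in Sertoli cells. Located on chromosome 19 from 25580108 to 25678819 on the forward strand, it had the highest share of the 10 genes, with 98.6% in B6 and 91.7% in KI. In B6 it lay in a single region of 98 kb, and in KI in regions of 88 kb and 2.5 kb separated by 5 kb. All KI covered bases were also covered in B6, and 93.0% of the B6 covered bases were covered in KI. Of the exon bases of Dmrt1, 2.59 kb in all, 77.5% were covered in B6 and 33.4% in KI, whereas the intron bases were covered to 99.2% and 93.3%. The number of refined peaks in Dmrt1 was 2 in B6 and 5 in KI. None of them overlapped between the strains, beside an overlap of 19.0% in B6 and 15.9% in KI over protein-coding genes, and the smallest distance was 2198 bp. The downstream neighbour Dmrt3, a gene of the same family, had a covered share of 21.7% in B6 and no covered base in KI.

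Uchl1, a ubiquitin carboxy-terminal hydrolase used as a spermatogonial marker, lies on chromosome 5 from 67067360 to 67078472 on the forward strand. The covered share was 94.2% for B6 and 89.7% for KI, formed by a single region in each strain, and this region ended at the same base in both, 3.03 kb beyond the 3′ end. Its start differed by 1 grid step, 0.641 kb from the 5′ end in B6 and 1.14 kb in KI. The refined peaks of Uchl1, 1 per strain, lay 10.5 kb from the 5′ end in B6 and 8.27 kb in KI, with 1842 bp between them. An RNA gene on the opposite strand, Gm16832, overlaps 377 bp of Uchl1, and the regions carry no strand.

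Zbtb16 encodes PLZF, a zinc finger repressor needed to maintain spermatogonial stem cells, on chromosome 9 from 48462416 to 48644050 on the reverse strand. With 69.1% covered in B6 and 37.2% in KI, it had the largest difference of the 10 genes under the main setting (-31.9 percentage points). When only single calls of at least 5000 bp, measured before merging, were kept, the difference was -11.6 points. This was smaller than those of Kit (-29.9), Sohlh1 (-23.5) and Sall4 (-17.8). Under this rule a merged region loses its shorter calls, so the order of the genes depends on how regions were split into calls. The merged Sall4 regions, 11 kb in B6 and 10.5 kb in KI, both exceed the limit. Zbtb16 was also the most divided gene, with 21 regions in B6 (median 4 kb, widest 20.5 kb) and 17 in KI (median 3 kb, widest 11.5 kb). The gene was divided into 10 parts of equal length (deciles) from the 5′ end. In decile 1 the B6 share was 91.5% and the KI share 83.2%. In decile 2 the B6 share was 91.7% and the KI share 20.2%. The other deciles lay between 38.5% and 84.8% for B6 and between 11.0% and 50.1% for KI, so B6 was higher in each decile, and by least in decile 1. In contrast to the introns (69.5% and 36.4%), the exon bases of Zbtb16 were covered to 56.0% by B6 regions and to 62.5% by KI regions. Of the 67.5 kb covered in KI, 84.4% was covered in B6, whereas of the 125.5 kb covered in B6, 45.4% was covered in KI.

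Kit, the receptor for KIT ligand, lies on chromosome 5 from 75970941 to 76052747 on the forward strand. In B6, 87.7% of it was covered by 4 regions, and in KI 72.4% was covered by 7. The first covered base was 1.56 kb from the 5′ end in B6 and 12.1 kb from it in KI. The differences lay mostly in the 5′ part of the gene. Decile 1 was covered to 30.6% by B6 regions and to 0% by KI regions, decile 2 to 95.4% and 46.5%, and decile 4 to 75.3% and 20.5%. From decile 5 on, at least 87.8% of each decile was covered in both strains. In the 5 kb downstream of Kit, 85.1% was covered in B6 and 25.1% in KI. Of the bases covered in KI, 97.5% were covered in B6, and of those covered in B6, 80.5% were covered in KI.

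Kit and Zbtb16 together held 47 of the 54 B6 refined peaks of the 10 genes and 41 of the 55 of KI, and they were the genes in which refined peaks of the strains overlapped. In Kit there were 9 refined peaks for B6 and 14 for KI, with 2 overlapping pairs. The KI peak of the more 5′ pair is 139 bp wide and shares 99 bp with the B6 peak chr5:75990570-75990829. The B6 peak of the other pair, 179 bp wide, lies wholly within a KI peak of 479 bp, of which the middle 300 bases (chr5:76038100-76038399) are given. These are the places in Kit where both strains had a narrow peak, and capitals mark the bases that lie in the peaks of both strains, on the forward strand of mm9.
Kit B6 peak: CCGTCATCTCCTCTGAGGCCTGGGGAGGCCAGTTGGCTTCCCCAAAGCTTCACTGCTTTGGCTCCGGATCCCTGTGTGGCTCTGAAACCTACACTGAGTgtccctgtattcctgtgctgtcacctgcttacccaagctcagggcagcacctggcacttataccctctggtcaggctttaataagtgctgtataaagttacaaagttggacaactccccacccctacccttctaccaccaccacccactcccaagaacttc
Kit KI peak: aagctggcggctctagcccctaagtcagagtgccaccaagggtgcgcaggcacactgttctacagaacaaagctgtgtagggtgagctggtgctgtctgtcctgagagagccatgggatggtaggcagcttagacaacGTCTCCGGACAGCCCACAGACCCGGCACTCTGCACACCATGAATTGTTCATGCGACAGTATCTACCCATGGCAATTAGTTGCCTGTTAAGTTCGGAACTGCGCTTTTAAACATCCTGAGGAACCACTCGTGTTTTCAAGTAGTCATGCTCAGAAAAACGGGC

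Sall4 encodes a zinc finger transcription factor of spermatogonia, on chromosome 2 from 168573832 to 168593443 on the reverse strand. It was covered to 46.8% in both strains, and the region started at the same base in both, 10.4 kb inside the gene. The exons were covered to 86.4% and the introns to 31.2% in both strains, the uncovered part being mostly the first intron of the longest coding transcript. A shorter annotated transcript of Sall4 starts 12 kb from the 5′ end, within the covered part. Of the 3 refined peaks in Sall4, 1 of B6 and 2 of KI, none overlapped, beside an overlap of 19.0% in B6 and 15.9% in KI over protein-coding genes. An RNA gene on the opposite strand, Gm14261, overlaps 1801 bp of Sall4.

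Gfra1, the co-receptor for GDNF on undifferentiated spermatogonia, had no covered base in B6 over its 220.3 kb (chromosome 19, 58310094 to 58530399, reverse strand). In KI, 5.90% of it was covered by 4 regions of 2.5 to 4.5 kb, lying 35.5 to 76 kb apart. Each of these 4 regions held 1 refined peak, between 276 and 523 bp wide, with midpoints in introns at 45.3, 91.2, 170.5 and 209.1 kb from the 5′ end. Gfra1 was the gene among the 10 with more coverage in KI than in B6, and its KI regions were isolated and did not form a continuous domain. None of its exon bases was covered in either strain.

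Nanos2 encodes an RNA-binding protein of spermatogonial stem cells and is a gene of 1.44 kb with 1 exon (chromosome 7, 19572873 to 19574311, forward strand). No broad region or refined peak lay in it in either strain. The nearest upstream region ended 77.9 kb away in B6 and 77.4 kb away in KI, and downstream a KI region started 5.63 kb from the 5′ end. Nanos2 is thus shorter than the shortest broad region in the other 9 genes, 2 kb. The upstream gene Nova2 and the downstream gene Gm10676 had no covered base in either strain. The Nanos2 promoter (chr7:19572623-19572872, forward strand) is given beside those of Stra8 and Sohlh1 because it holds no CpG dinucleotide and so has no capitals.
Nanos2 promoter: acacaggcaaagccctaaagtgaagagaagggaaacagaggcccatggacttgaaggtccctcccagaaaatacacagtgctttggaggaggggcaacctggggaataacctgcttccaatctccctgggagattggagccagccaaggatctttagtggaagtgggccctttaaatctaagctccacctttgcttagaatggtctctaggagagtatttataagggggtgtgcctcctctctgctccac

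Over all promoters of this length the median number of CpG dinucleotides was 8. Among the 10 genes it ran from 0 in Nanos2 and 2 in Sall4 to 17 in Kit and 21 in Zbtb16. The covered genes Stra8 and Uchl1, with 7 each, lay close to the median, so the number of CpG did not order the genes by their coverage.

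The 5′ base was uncovered in 10 of 10 genes in both strains. This is near the background of 94.1% in B6 and 93.9% in KI for all protein-coding genes, and among covered genes it was 7 of 7 in B6, beside 88.6%, and 6 of 6 in KI, beside 88.4%. The 3′ base was covered in 6 of the 7 covered genes in B6, beside 93.3%, Zbtb16 being the exception, and in 5 of 6 in KI, beside 92.3%, Dmrt1 being the exception. More than 1 region lay in 2 of the 7 covered genes in B6 (Zbtb16 and Kit), beside 27.1%, and in 2 of 6 in KI (Kit and Dmrt1), beside 32.4%. Where inside the gene the broad region began was compared between the strains in the 6 genes that were covered in both. The start lay further from the 5′ end in KI in 6 of 6, beside 34.5% of all genes covered in both strains, whereas in 47.2% of those the start was at the same base and in 18.3% it was closer in KI. In 4 of the 6 genes the start was 1 kb or more further in KI, beside 14.7%. It lay beyond 1 kb in 4 of 6 in B6, beside 45.2%, and in 6 of 6 in KI, beside 48.6%. The distance was 0.5 kb, or 1 grid step, in Dmrt1 and Uchl1, 1 kb in Sohlh1, 1.5 kb in Stra8 and Sohlh2 and 10.5 kb in Kit. Zbtb16, covered in B6 alone, also started 1 kb further in KI, which made 7 genes with a later KI start. When gaps of up to 2000 bp were bridged, this number was 6, since the KI region over Sohlh1 then joined one upstream. Without bridging, all bases covered in KI were covered in B6 as well in 5 of the 6 genes covered in both strains, Kit being the exception. The background for this was 70.9% of the genes covered in both strains. The converse held in 0 of 6, beside 51%.

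**Figure D3:**
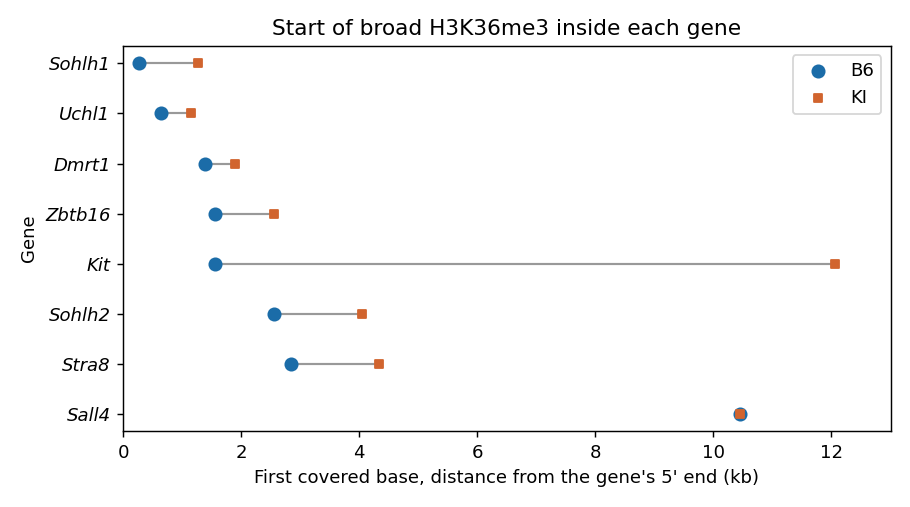
Distance in kb from the 5′ end of the gene to the first base in a broad region (horizontal axis) for the 8 genes with a covered base in both strains, with circles for B6, squares for KI and a line joining the strains. The KI start is to the right of the B6 start in 7 genes, by 0.5 to 10.5 kb, and coincides with it in Sall4.

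The covered share was lower in KI than in B6 in 7 of the 10 genes, beside 31% of all protein-coding genes, equal in Sall4 and Nanos2 and higher in 1, Gfra1, beside 17.3%. KI was lower by 10 percentage points or more in 3 genes, Zbtb16 (-31.9), Sohlh1 (-23.5) and Kit (-15.3), beside 11.4% of all protein-coding genes, and higher by as much in 0, beside 5.67%. It was lower by 20 points or more in 2, beside 5.24%. Since a gene without the mark cannot lose coverage, the 6 genes covered in both strains were also set beside the 8919 such genes, which leaves out Zbtb16. KI was lower by 10 points or more in 2 of these 6, Sohlh1 and Kit, beside 10.7% of the 8919, by 20 points or more in 1, Sohlh1, beside 2.75%, and by any amount in 6 of 6, beside 44.4%. KI was higher by any amount in 0 of 6, beside 14.9%, and by 10 points or more in 0, beside 2.8%. These counts depend on the gap rule at Sohlh1, where the difference became 6.30 points when gaps of up to 2000 bp were bridged. Across the 6 genes the median KI minus B6 difference was -7.36 percentage points, whereas across the 8919 it was 0. For Stra8, Sohlh1, Sohlh2 and Uchl1 the whole difference was the later start of the region in KI. The counts of starts, of bases covered in both strains and of shares are therefore not separate observations for these genes.

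**Figure D4:**
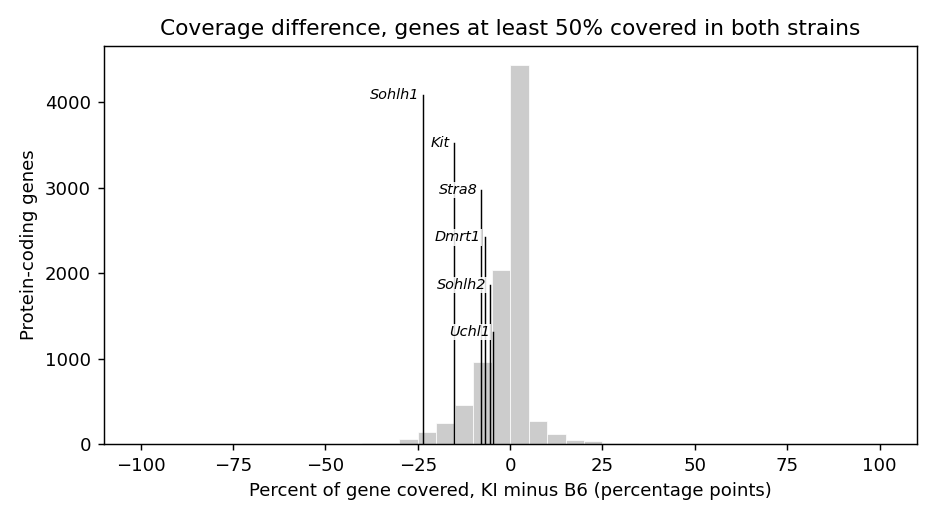
Number of protein-coding genes (vertical axis) by the difference in covered share, KI minus B6 in percentage points (horizontal axis, bins of 5 points), for the 8919 genes covered to at least 50% in both strains. Lines mark the 6 of the 10 genes in this set, all below 0 from Uchl1 (-4.50) to Sohlh1 (-23.5), and genes with equal shares fall in the bin that begins at 0.

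Marker genes of Sertoli cells, the somatic cells of the tubule, were mostly less covered in KI as well. Of 8 such genes 7 were found, of which 5 were lower in KI, beside 31% of all protein-coding genes. Fshr was higher in KI (3.24% and 4.50%), beside 17.3%, and 1 gene was equal. Broad regions covered 16.4% of their summed length in B6 and 5.46% in KI, with single genes at 0% to 71.7% in B6 and 0% to 8.49% in KI. KI was lower by 10 points or more in 4 of the 7, beside 11.4% of all protein-coding genes. These were Wt1 (71.7% and 8.49%), Sox9 (45.2% and 0%), Amh (42.0% and 0.333%) and Gata4 (19.6% and 8.25%). The region over Amh began 6.49 kb upstream of the gene in both strains and ended within it. Inha had no covered base in either strain, and Sox9 and Cldn11 had none in KI. The spermatocyte genes were covered to 94.6% of their summed length in both strains. None of the 9 differed by 10 points. Among all genes covered in both strains, KI was lower by as much in 10.7% and higher in 2.8%. With 9 genes, a count of none lies near these shares. The B6 and KI shares were 11.1% and 8.35% for Leydig cell genes, 14.6% and 9.99% for peritubular cell genes, 3.80% and 4.23% for blood cell genes and 32.8% and 27.4% for spermatid genes. Of the blood cell genes, Cd68 was covered to 100% in both strains by a region that began upstream of it. The part of Sertoli or other cells, and of sequencing depth, in the lower KI coverage of Zbtb16, Kit, Sohlh1 and the other genes was not tested.

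The 10 genes held 54 B6 and 55 KI refined peaks, and at least 1 lay in 8 genes in B6, beside 52.7% of all protein-coding genes, and in 8 in KI, beside 54.9%. Of these, 7 genes held peaks in both strains, Sohlh1 in B6 alone and Gfra1 in KI alone. The density was 0.811 and 0.826 per 10 kb, whereas all protein-coding genes had 0.451 and 0.540. Without Zbtb16, the other 9 genes held 16 B6 and 28 KI peaks, or 0.330 and 0.578 per 10 kb, so the higher density in B6 rested on Zbtb16. The 6 genes covered in both strains had 0.617 and 0.905 per 10 kb, beside 0.670 and 0.982 for all genes covered in both. Zbtb16 alone held 38 B6 and 27 KI refined peaks, or 2.09 and 1.49 per 10 kb, while Dmrt1, which was covered almost throughout, had 0.203 and 0.507. The number of narrow peaks thus did not follow the covered share. However, each broad region that touched the 10 genes held at least 1 refined peak. The number of regions therefore sets a floor under the count within a gene, except at Sohlh1 in KI. There, 1 region held its refined peaks beyond the 3′ end, and 0 lay within the gene. Zbtb16 had 21 regions in B6 and 17 in KI, whereas Dmrt1 had 1 and 2. The higher density in Zbtb16 is therefore not independent of its division into regions.

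Most refined peaks of the 10 genes met no refined peak of the other strain. In B6, 8 of 54 overlapped a KI refined peak (14.8%), beside 19.0% of the B6 refined peaks in protein-coding genes, and in KI 8 of 55 overlapped a B6 refined peak (14.5%), beside 15.9%. Of the 8 in each strain, 6 were in Zbtb16 and 2 in Kit. A broad region of the other strain lay under 28 of the 54 B6 peaks (51.9%), beside 62.6% of those in protein-coding genes, and under 46 of the 55 KI peaks (83.6%), beside 80.8%. Of the 26 B6 peaks with no KI region, 20 were in Zbtb16, 5 in Kit and 1 in Dmrt1. Of the 9 KI peaks with no B6 region, 4 were the peaks of Gfra1, 4 were in Zbtb16 and 1 was in Kit.

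By position, the midpoints of all 54 B6 refined peaks lay in introns. In KI, 52 of 55 did, 1 lay in a coding exon of Zbtb16, 1 in a coding exon of Sall4 and 1 in an exon of Sall4 outside the coding part. Introns make up 95.1% of the summed length of the 10 genes, so these counts lie near that share, and of the refined peaks in all protein-coding genes 88.7% in B6 and 89.4% in KI had midpoints in introns. Within the genes, the midpoint nearest to a 5′ end was 2.56 kb from it in B6, in Sohlh1, and 4.88 kb from it in KI, in Dmrt1. The median width was 306 bp in B6 and 315 bp in KI, beside 316 bp and 324 bp for the refined peaks in protein-coding genes.

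Other genes of the pathway were taken from a list of 62 genes in 4 classes, all of which were found. Of these, 33 were covered in B6 and 28 in KI, beside 43% and 41.2% of all protein-coding genes. KI was lower by 10 points or more in 16, beside 11.4%, and higher by as much in 1, Bmp4 (0% and 11.3%), beside 5.67%. The 15 genes of meiotic entry and early prophase, which include Sycp3 and Stag3 of the spermatocyte markers, were all covered in both strains. They ranged from Ddx4, a germ cell RNA helicase covered to 99.97% in both, to Hspa2, a heat shock protein gene covered to 51.5% in both, and KI was lower by 10 points or more in 1 of them, Zglp1 (99.2% and 88.6%). Stra8 thus had less coverage than the median of this class, which was 96.4% in B6 and 95.0% in KI.

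Among 19 other regulators of spermatogonia, 6 were covered in B6 and 4 in KI, beside 43% and 41.2% of all protein-coding genes, and KI was lower by 10 points or more in 7, beside 11.4%. No base was covered in 7 of the 19 in B6 and in 10 in KI, beside 39.3% and 37.8% of all protein-coding genes. Those at 0 in both strains were Lhx1, Pou3f1, T, Eomes, Utf1, Sox3 and Neurog3. Nanos3, of the same family as Nanos2, was covered to 100% in both strains by a region that began upstream of it and ran 25.1 kb beyond its 3′ end. Ccnd2, which encodes the cell cycle regulator cyclin D2, went from 51.4% in B6 to 0% in KI, the largest difference in the list.

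Among 16 genes of ligands, receptors and surface proteins, 5 were covered in B6 and 4 in KI, beside the same 43% and 41.2%, and KI was lower by 10 points or more in 4 and higher in 1. They ranged from Itgb1, an integrin subunit (98.0% and 92.8%), to Ret and Thy1 at 0 in both strains. Ret, the signalling partner of GFRA1, thus had no covered base in either strain, beside the 0% and 5.90% of Gfra1. For Kitl, the ligand of KIT, the shares were 17.7% and 4.72%, and for Gdnf, the ligand of GFRA1, 7.53% and 15.1%. Among 12 genes of retinoic acid synthesis, breakdown and reception, 7 were covered in B6 and 5 in KI, and KI was lower by 10 points or more in 4, against these same background shares. They ranged from Rdh10, a retinol dehydrogenase gene (95.9% in both), to Cyp26a1, which degrades retinoic acid, at 0 in both. Aldh1a1, of retinoic acid synthesis, had a share of 80.6% in B6 against 41.0% in KI, and Rbp4, the retinol-binding protein, 56.2% against 27.5%. Differences between these classes were not tested.

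**Figure D5:**
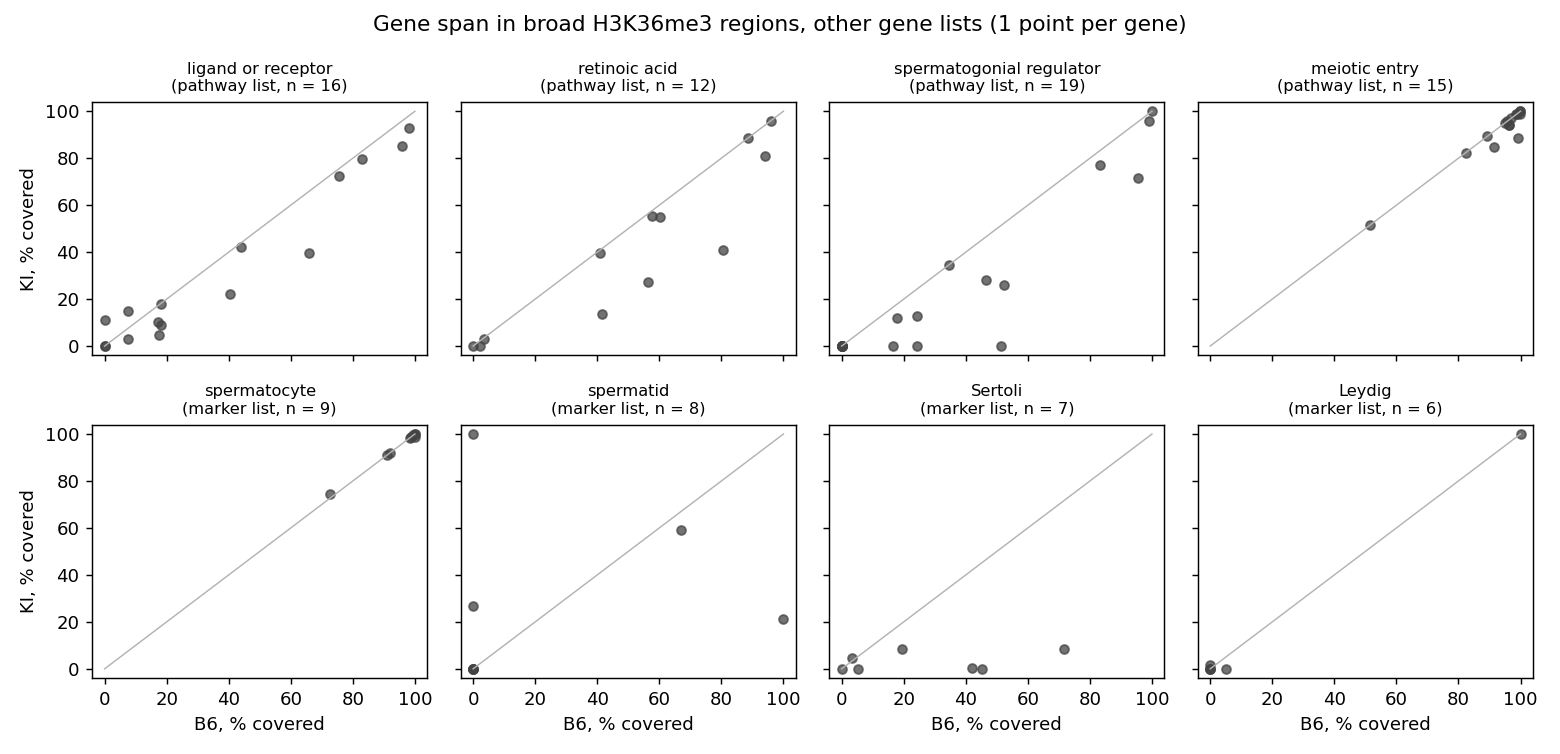
Percent of the gene span in broad regions in B6 (horizontal axis) and KI (vertical axis), 1 point per gene, for the 4 classes of other pathway genes and for 4 lists of cell type markers, with the line of equal values. Genes of meiotic entry and spermatocyte markers lie near the line, with Zglp1 (99.2% and 88.6%) the furthest below it. Of the Sertoli markers, Wt1, Sox9, Amh, Gata4 and Cldn11 lie below the line, Fshr (3.24% and 4.50%) lies above it and Inha is at 0 in both strains.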

How the data were processed

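H3K36me3 ChIP-seq reads of 2 biological replicates per strain were aligned by the authors to mm9 with BWA 1.2.3 (also named in the submitters' processing notes), reads without a unique position were discarded, replicates were merged, and ZINBA called broad (unrefined) and narrow (refined) regions against the input of each strain. The deposited files list positions alone, without counts or scores, so depth per region is unknown and peaks cannot be ranked. Broad regions start on a 500 bp grid plus 1 base, which was taken to mean that the first base of a chromosome is 1.

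Regions were used without repeats and overlapping broad regions were merged, giving 39620 in B6 and 48863 in KI. Genes are spans of the GENCODE vM1 annotation of NCBIM37, the same build as mm9, and sequences come from that genome (samtools 1.23.1, pysam 0.24.0). Shares were computed in Python 3.11.15 with numpy 2.4.6 and, on simulated regions, equalled base-by-base counts for 1000 of 1000 genes.

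The genes, lists and limits were chosen with earlier results of these data known. Named are the 10 genes, their refined peaks and neighbours and, of the other pathway genes, the highest and lowest of each class and the 3 with the largest strain difference. Kitl, Gdnf, Star, the promoters of Stra8 and Nanos2, the background of genes covered in both strains, the comparison of starts and the density without Zbtb16 were added after values were seen. Meiob and Rhox5 were not matched by symbol. Alternatives were other gap, width, span, limit and overlap rules.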

Additional observations from a re-analysis of the deposited data

How the results depend on the processing

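Under the alternatives, 68 values stayed close to the main value (within 1.5 times for counts, 5 percentage points for shares and 0.5 kb for starts), 15 moved further and 1 changed sign. With gaps of up to 2000 bp bridged, the median share of the 10 genes in KI was 77.3%, the difference at Zbtb16 was -38.0 points and that at Sohlh1 turned to 6.30 points. With only single broad calls of at least 5000 bp kept before merging, the median shares were 79.1% in B6 and 56.6% in KI. The KI minus B6 differences were then -11.6 points at Zbtb16, -29.9 at Kit, -17.8 at Sall4 and 0 at Gfra1. This rule also drops short calls within longer merged regions, so these values depend on how the regions were split into calls. With a limit of 80% of the span, 3 genes were covered in KI. With refined peaks of at least 300 bp, 28 remained in B6 and 30 in KI. Refined peaks met by the other strain numbered 13 in B6 and 16 in KI at a distance of up to 500 bp, and 28 and 46 where a broad region in the other strain also counted as a match, in place of 8 and 8, which follows from the wider definition. The causes of the other changes were not tested. The lists carry no score, so a stricter threshold could be set by width alone. No paired analysis was possible because each strain has 1 list called on merged replicates, which also leaves no analysis without a replicate.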
